A study of Homo sapiens and Mus musculus with 21 samples.

Results

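The replication-dependent histone genes supply the histones that package newly made DNA. They were taken by symbol: the gene table of the reference holds 69 protein-coding genes whose older names start with HIST1H, HIST2H, HIST3H or HIST4H and whose current names start with H1-, H2AC, H2BC, H3C or H4C, among 20056 protein-coding genes. They comprise 6 H1, 17 H2A, 18 H2B, 13 H3 and 15 H4 genes, 55 of them on chromosome 6, 13 on chromosome 1 and 1 on chromosome 12. Of these, 28 carried a name in the deposited tables and could be read in all of the input, fragment and efficiency tables: 3 H1, 7 H2A, 6 H2B, 5 H3 and 7 H4 genes. The other 41 have no name beside an Ensembl identifier in these files, so their RNA levels were not analysed here, and nor was that of PCIF1. None of the 69 was among the 666 genes with a stability ratio from SLAM-seq.

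The study removed PCIF1, the enzyme named in its title as the m6Am methyltransferase, from HEK293T, a transformed human embryonic kidney line. The libraries used here are input RNA and ribosome-protected fragments from wild-type (WT, 2 libraries each) and PCIF1 KO cells (3 libraries each), all of cytoplasmic RNA per the labels. They also include miCLIP lists from 1 WT and 2 PCIF1 KO libraries of polyadenylated RNA, for which an antibody against m6A was crosslinked to RNA so that methylated positions are read as substitutions. The labels name no treatment, and they do not say how many KO clones were used or whether replicates were separate cultures, so the spread behind each p-value may be technical only.

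Core histones H2A, H2B, H3 and H4 form the nucleosome, and linker histone H1 binds the DNA that enters and leaves it. Their replication-dependent genes lie in clusters, mostly lack introns and are transcribed mainly during S phase. Their mRNAs typically end in a conserved stem-loop, bound by SLBP, in place of a poly(A) tail, and are degraded rapidly when DNA synthesis stops. m6Am is an adenosine next to the cap that carries a methyl group on the ribose and another on the base. It can form only where transcription starts at an A, so the first base of each histone mRNA bears on whether PCIF1 could act on it.

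The input libraries held 4511687 to 5960674 counts. The fragment table covers 785 genes, none of them below 10 counts in a WT library, and held 17665 counts in WT replicate 1 and 46193 to 124580 in the other 4 libraries. WT replicate 1 had the fewest fragments. The 28 named histone genes passed that minimum and are not a sample of all 69, and whether unnamed members are among the other genes of the fragment table was not determined. Near-identical coding sequences within each type could split reads between members, and the mapping rule is not given in the sources used here, so levels of single members are uncertain. The oligo(dT) selection in the extraction protocol is stated for the series as one text, and whether it was applied to the input libraries is not clear from the labels.

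The measured histone genes lay among the more abundant transcripts of the input, near the level of other genes with fragments in WT. Their median level was 219 TMM-scaled CPM (counts scaled to a common library size), against 199 CPM for the other genes of the fragment table, which passed the same minimum, and 27.1 CPM for all 14629 genes tested, and the lowest member lay at percentile 70.2. Together they made up 0.695% to 0.949% of the counts of a library. Values are given below in the order WT replicates 1 and 2, then KO replicates 1, 2 and 3. Fragment values are TMM-scaled CPM over the fragments of the 785 listed genes, so their scale is not that of the input.

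**Figure D1:**
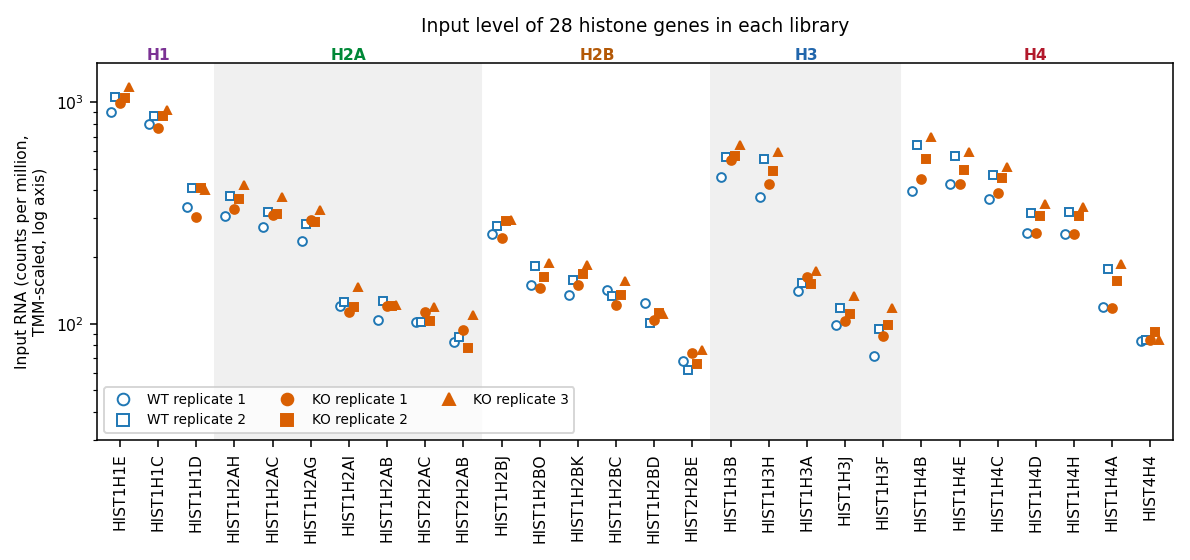
Input RNA level of each of the 28 histone genes (y axis: TMM-scaled CPM, log axis), grouped by histone type and ordered by mean within a type; each point is 1 library, with open blue symbols for WT and filled orange symbols for KO. HIST1H1E lay highest at 908 to 1174 CPM, and KO and WT points overlap in 25 of the 28 genes. Every KO point lies above every WT point in the other 3, as in 10.7% of all genes tested. In none does every KO point lie below, against 13.5% of all genes tested.

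Of the linker histone genes, HIST1H1E and HIST1H1C had the highest input counts of the 28 in every library, while HIST1H1D lay among the others. HIST1H1E (H1-4) was at 908 and 1055 CPM in WT and 996, 1050.3 and 1174 in KO in the input and at 15372 and 19132 in WT and 20152, 20441 and 21162 in KO in the fragments. HIST1H1C (H1-2) was at 798 and 872 CPM in WT and 769, 869 and 923 in KO in the input and at 9674 and 16946 in WT and 15363, 17134 and 15648 in KO in the fragments. HIST1H1D (H1-3) was at 337 and 409 CPM in WT and 302, 412 and 400.2 in KO in the input and at 1344 and 2589.7 in WT and 1775, 2899.6 and 1614 in KO in the fragments. WT replicate 1 was the lowest library for all 3 genes in the fragments, while in the input KO replicate 1 was the lowest for HIST1H1C and HIST1H1D.

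Among H2A genes, which encode a core histone that pairs with H2B, HIST1H2AH, HIST1H2AC and HIST1H2AG had the highest levels. HIST1H2AH (H2AC12) was at 308 and 377 CPM in WT and 329, 367 and 424 in KO in the input and at 2096 and 2913 in WT and 2733, 3714 and 3177 in KO in the fragments. HIST1H2AC (H2AC6) was at 274 and 319 CPM in WT and 311, 314 and 373 in KO and at 2257 and 2622 in WT and 2352, 1773 and 3143 in KO. HIST1H2AG (H2AC11) was at 238 and 283 CPM in WT and 294, 288 and 327 in KO and at 1989 and 3448 in WT and 3270.4, 4146 and 3227 in KO. In the input every KO library lay above both WT libraries for HIST1H2AG, and the groups overlapped for HIST1H2AH and HIST1H2AC. The remaining H2A genes lay at lower levels. HIST1H2AI (H2AC13) was at 121 and 125 CPM in WT and 113, 119 and 147 in KO in the input and at 1021 and 1716 in WT and 895, 1509.7 and 2185 in KO in the fragments. HIST1H2AB (H2AC4) was at 104 and 127 CPM in WT and 120.4, 120.2 and 122 in KO and at 1666 and 2072 in WT and 1277, 1941 and 1227 in KO. HIST2H2AC (H2AC20), from the cluster on chromosome 1, was at 102 and 102 CPM in WT and 113, 103 and 119.7 in KO and at 537 and 1699.5 in WT and 1246, 719 and 1277 in KO. Its input values lay above both WT libraries in each KO library, by less than 1 CPM in KO replicate 2, while its WT fragments were wide apart. HIST2H2AB (H2AC21) was at 82.7 and 87.5 CPM in WT and 93.6, 77.8 and 109 in KO in the input and at 591 and 809 in WT and 561, 623 and 840.4 in KO in the fragments, and its groups overlapped in both.

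The H2B genes, partners of H2A and often transcribed from the same divergent promoter, ranged less in the input. HIST1H2BJ (H2BC11) was at 256 and 277 CPM in WT and 244, 291 and 295 in KO in the input and at 3762 and 4775 in WT and 4882, 4817 and 4807 in KO in the fragments. HIST1H2BO (H2BC17) was at 150.0 and 183 CPM in WT and 145, 163 and 189 in KO and at 1182 and 2072 in WT and 1448, 1653 and 1546 in KO. HIST1H2BK (H2BC12) was at 135 and 158 CPM in WT and 149, 167 and 184 in KO and at 699 and 1829 in WT and 1768, 1653 and 1698 in KO. For HIST1H2BJ the KO fragments lay above both WT libraries by a narrow margin, while its input groups overlapped. HIST1H2BC (H2BC4) was at 142 and 134 CPM in WT and 122, 135 and 157 in KO in the input and at 2419 and 2428 in WT and 2017, 1917 and 2555 in KO in the fragments. HIST1H2BD (H2BC5) was at 125 and 101 CPM in WT and 104, 112 and 111 in KO and at 4568 and 1958 in WT and 2453, 2013 and 2101 in KO. HIST2H2BE (H2BC21) was at 67.7 and 61.9 CPM in WT and 73.8, 66 and 76.2 in KO and at 591 and 1521 in WT and 1254, 1917 and 1496 in KO. WT replicate 1 held the highest fragment value of HIST1H2BD and the lowest of HIST2H2BE, so the same library set the WT spread of both in opposite directions.

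Of the H3 genes, whose product carries many of the regulatory histone tail modifications, HIST1H3B and HIST1H3H stood above the rest. HIST1H3B (H3C2) was at 461 and 566 CPM in WT and 548, 571 and 644 in KO in the input and at 10911 and 11379 in WT and 12521, 12054 and 10623 in KO in the fragments. HIST1H3H (H3C10) was at 374 and 552 CPM in WT and 426, 487 and 595 in KO and at 5805 and 7413 in WT and 5809, 8579 and 9581 in KO. Both had their lowest input value in WT replicate 1 and their highest in KO replicate 3. HIST1H3A (H3C1) was at 140.1 and 153 CPM in WT and 163, 152 and 173 in KO in the input and at 1666 and 2606 in WT and 1978, 2948 and 2588 in KO in the fragments. HIST1H3J (H3C12) was at 98.6 and 118 CPM in WT and 103, 111 and 133 in KO and at 1182 and 1036 in WT and 1518, 1294 and 1008 in KO. HIST1H3F (H3C7) was at 71.6 and 94.9 CPM in WT and 88.5, 99.1 and 118 in KO and at 591 and 906 in WT and 599.6, 575 and 622 in KO. Every input group of these 5 genes overlapped.

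Among the H4 genes, whose product pairs with H3, HIST1H4B had the widest spread between WT input libraries of all 28 genes. HIST1H4B (H4C2) was at 399 and 644 CPM in WT and 449, 553 and 697 in KO in the input and at 3332 and 4079 in WT and 3699, 3882 and 3832 in KO in the fragments. HIST1H4E (H4C5) was at 426 and 575 CPM in WT and 428, 493 and 597 in KO and at 2579.9 and 3237 in WT and 3621, 3451 and 4202 in KO. HIST1H4C (H4C3) was at 366 and 467 CPM in WT and 390.1, 457 and 513 in KO and at 5966 and 6118 in WT and 6447, 6566 and 7144 in KO. In the fragments the KO libraries lay above both WT libraries for HIST1H4C and HIST1H4E, and not for HIST1H4B. HIST1H4D (H4C4) was at 258 and 317 CPM in WT and 257, 307 and 348 in KO in the input and at 3171 and 3350.4 in WT and 2352, 2636 and 3412 in KO in the fragments. HIST1H4H (H4C8) was at 255 and 319 CPM in WT and 254, 307 and 338 in KO and at 3439.8 and 2363 in WT and 2912, 2564 and 2807 in KO. HIST1H4A (H4C1) was at 119 and 177 CPM in WT and 118, 156 and 185 in KO and at 1612 and 809 in WT and 864, 1366 and 1177 in KO. The input values of these 3 genes were higher in WT replicate 2 than in WT replicate 1, and KO replicate 3 held the highest of each. HIST4H4 (H4C16), the member on chromosome 12, was at 83.9 and 84.5 CPM in WT and 84.6, 91.9 and 84.9 in KO in the input, where the KO libraries lay above WT by less than 1 CPM at the closest, and at 537 and 809 in WT and 763, 575 and 958 in KO in the fragments.

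Divided by the length of the gene, which in the 24 measured members with a span under 1000 nt is close to that of the transcript, the order changed. HIST1H4B had the highest input level, 1414 CPM per kb ± 324 (SD over the 5 libraries), followed by HIST1H1E at 1317 ± 123, HIST1H4E at 1223 ± 194, HIST1H1C at 1158 ± 85.1 and HIST1H3B at 1092 ± 128. These neighbours lay within 1 SD of each other. The lowest of the 24 was HIST2H2AB at 181 ± 24.6 CPM per kb. By type, the medians were 1158 CPM per kb for 3 H1 genes, 738 for 7 H4 genes, 462 for 2 H2B genes, 308 for 5 H3 genes and 253 for 7 H2A genes, and the ranges of all 5 types overlapped.

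Libraries of one genotype differed in histone level by more than the genotypes did. Relative to each gene's mean over the 5 input libraries, their median log2 level was -0.18 in WT replicate 1 and 0.03 in WT replicate 2, and -0.13, 0.02 and 0.21 in KO replicates 1 to 3. KO replicate 1 and WT replicate 1 were both low, and the pooled SD of these medians within groups was 0.16 (n = 2 and 3). All genes tested had medians between -0.01 and 0.02 in the same libraries. The 13 named genes of DNA replication and histone chaperones had medians of 0.06 and -0.02 in WT and -0.04, -0.01 and 0.01 in KO. Whether the libraries differed in their share of cells in S phase was not tested. In the fragments the histone medians were -0.30 and 0.14 in WT and -0.02, 0.08 and 0.14 in KO.

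**Figure D2:**
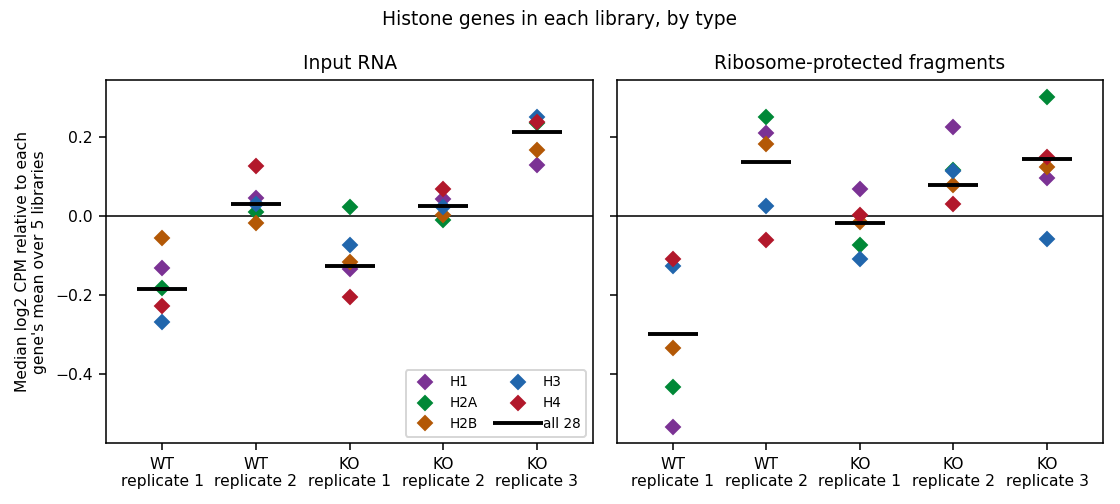
Median log2 CPM of the histone genes in each library relative to each gene's mean over the 5 libraries (y axis), for input RNA (left) and ribosome-protected fragments (right); diamonds are the 5 histone types and black bars all 28 genes. In the input WT replicate 1 (-0.18) and KO replicate 1 (-0.13) lie low and KO replicate 3 (0.21) high, so each genotype holds a low library.

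The comparison of KO with WT input addresses whether loss of PCIF1 altered histone mRNA levels. Of the 28 histone genes 25 had a positive log2 fold change, with a median of 0.11, against 47.0% of all 14629 genes and a median of -0.02. edgeR's quasi-likelihood test called 0 of the 28 after Benjamini-Hochberg adjustment over all genes, and 0.0342% of all genes (5). At an unadjusted p under 0.05 it called 0 of the 28 and 9.3% of all genes, and DESeq2 also called 0 of the 28, of 15 genes in all. Every KO library lay above every WT library in 3 members (HIST1H2AG, HIST2H2AC and HIST4H4), as it did in 10.7% of all genes, and in none did every KO library lie below, against 13.5% of all genes.

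The member with the smallest p of each type stayed far from the threshold in edgeR's test. HIST1H2AG was at 0.22 (SE 0.10, edgeR adjusted p = 0.543), which was also the smallest adjusted p of all 28. HIST1H3B was at 0.19 (SE 0.10, edgeR adjusted p = 0.575), HIST1H2BK at 0.19 (SE 0.12, edgeR adjusted p = 0.626), HIST1H1E at 0.13 (SE 0.09, edgeR adjusted p = 0.674) and HIST1H4C at 0.12 (SE 0.13, edgeR adjusted p = 0.793). The largest value was that of HIST1H3F, 0.29 (SE 0.16, edgeR adjusted p = 0.575). By type, 7 of 7 H2A genes (median 0.13), 5 of 5 H3 genes (0.15) and 7 of 7 H4 genes (0.06) were positive, as were 4 of 6 H2B genes (0.03) and 2 of 3 H1 genes (0.03). The 3 negative values were those of HIST1H2BD (-0.05), HIST1H2BO (-0.01) and HIST1H1D (-0.01).

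These counts rested on single libraries. Without WT replicate 1 the histone median was 0.00 and 14 of 28 were positive, and without KO replicate 3 it was 0.03 with 16 positive. Without WT replicate 2 it was 0.26, and edgeR called 11 of the 28, all higher, against 5.3% of genes called higher in that fit. The 11 were 1 H1, 3 H2A, 1 H2B, 3 H3 and 3 H4 genes. They included HIST1H3H (0.45, edgeR adjusted p = 0.000139), which was at -0.14 without WT replicate 1, and HIST1H2AG (0.38, edgeR adjusted p = 0.00433), which was at 0.10 without it. Both fits take the spread from the KO libraries, since 1 WT library remains.

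**Figure D3:**
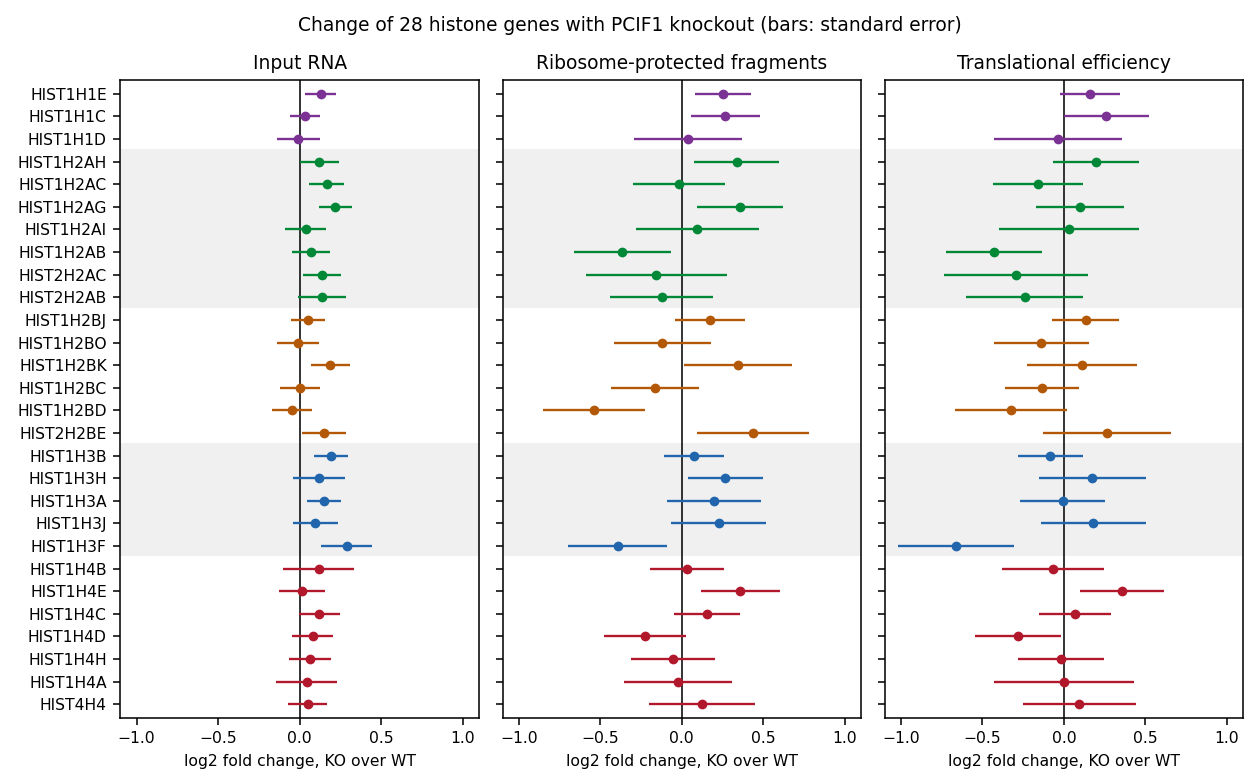
log2 fold change of KO over WT for each of the 28 histone genes in input RNA, ribosome-protected fragments and translational efficiency (x axes). Bars are 1 standard error, derived from edgeR's fold change and F statistic. Colours and bands mark the histone types, and genes are ordered as in the plot of input levels. The input values lie between -0.05 and 0.29, and those of fragments and efficiency scatter on both sides of 0 with wider bars.

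In the ribosome-protected fragments 17 of 28 histone genes had a positive log2 fold change, with a median of 0.08 against 0.00 for the 785 listed genes. edgeR's quasi-likelihood test called 0 of the 28 and 0% of the listed genes after adjustment. At an unadjusted p under 0.05 it called 0 of the 28 and 3.82% of the listed genes, and DESeq2 called none in either. Every KO library lay above every WT library in 4 members (HIST1H1E, HIST1H2BJ, HIST1H4C and HIST1H4E), against 10.6% of the listed genes, and below in none, against 10.4%. The values ran from -0.54 (SE 0.31) for HIST1H2BD to 0.44 (SE 0.34) for HIST2H2BE. All 3 H1 genes were positive (median 0.25), as were 4 of 5 H3 genes (0.20), 4 of 7 H4 genes (0.03), 3 of 6 H2B genes (0.03) and 3 of 7 H2A genes (-0.01). These values rested on WT replicate 1, the shallowest library. Without it HIST1H2BD was at 0.17 and HIST2H2BE at 0.01, and without WT replicate 2 they were at -1.05 and 1.37. Without WT replicate 1 the range ran from -0.62 for HIST2H2AC to 0.46 for HIST1H4A, the histone median was -0.07 and 13 of 28 were positive: 1 of 3 H1 genes, 2 of 7 H2A, 3 of 6 H2B, 3 of 5 H3 and 4 of 7 H4 genes. Without WT replicate 2 the histone median was 0.37, with 22 positive.

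Translational efficiency, here the change of fragments relative to the change of input in 1 model over the 10 libraries, addresses whether histone mRNAs were translated differently without PCIF1. Of the 28 genes 14 had a positive log2 change, with a median of -0.0041, and 50.6% of the listed genes did. edgeR called 0 of the 28 and 0% of 785 genes. At an unadjusted p under 0.05 it called 0 of the 28 and 6.75% of the listed genes. DESeq2 called 2 genes, neither a histone gene. In the table that the authors deposited, 0.262% of 764 genes with a p-value passed the threshold and 0 of the 28 histone genes did. HIST1H3F had the lowest value, -0.66 (SE 0.36, edgeR adjusted p = 0.703); the authors' deposited table gives -0.69 (adjusted p = 0.553). HIST1H2AB was at -0.43 (SE 0.30) and HIST1H4E highest at 0.36 (SE 0.26). By type the medians were 0.16 for H1, -0.16 for H2A, -0.01 for H2B, -0.01 for H3 and 0.00 for H4. The SE of a single gene had a median of 0.26 to 0.32 within a type, which is not the error of a type median. Without WT replicate 1 HIST1H3F was at -0.64, HIST1H2AB at -0.42 and HIST1H4E at 0.45, while the extremes were HIST2H2AC at -0.69 and HIST1H4A at 0.69. The type medians in that fit were 0.00 for H1, -0.19 for H2A, -0.14 for H2B, 0.04 for H3 and 0.23 for H4. Without WT replicate 2 the extremes were HIST1H4A at -0.90 and HIST2H2BE at 1.29. The type medians were then 0.45 for H1, 0.33 for H2A, 0.26 for H2B, -0.08 for H3 and -0.30 for H4. The signs of the H2A, H2B, H3 and H4 medians thus depended on which WT library was kept.

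The level of fragments relative to input also varied among the histone genes within a genotype. Expressed as the log2 ratio of a gene's share of fragments to its share of input over the listed genes, the histone median was 1.08, against -0.14 for all 785 listed genes. The histone genes took 9.54% to 11.8% of fragments and 3.49% to 4.57% of input counts on the listed genes. This ratio was not adjusted for the coding share of each mRNA, and the listed genes had to hold fragments in WT, so the height of the values above 0 is a description only. Whether the input was selected by oligo(dT) is not clear from the labels. How far this enters the ratio of mRNAs without a poly(A) tail was not tested. The type medians over the 5 libraries ran from 1.30 to 1.83 for H2B, from 1.40 to 2.06 for H1, from 1.38 to 1.68 for H3, from 0.79 to 1.30 for H2A and from 0.58 to 1.42 for H4. H3 lay above H2A in 5 of 5 libraries, with no overlap of their type medians, whereas H4 and H2A overlapped. WT replicate 1 held the lowest value of H1, H2B and H3 and the highest of H4. Without it the type medians ran from 1.83 to 2.06 for H1, from 1.48 to 1.83 for H2B, from 1.44 to 1.68 for H3 and from 0.58 to 0.91 for H4, the H2A range did not change, and the histone median was 1.11.

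In 4 of the 5 types the members spanned more than the type medians did, narrowly so for H4. The medians of the 5 types spanned 1.07, and the members of H1 spanned 1.80, H3 1.57, H2B 1.29, H4 1.13 and H2A 0.84. Without WT replicate 1 the medians spanned 1.11, and the members of H1 1.735, H3 1.58, H2B 1.17, H4 1.14 and H2A 0.81. Medians vary less than single members, so these spans are not like measures. HIST1H1E was at 1.92 ± 0.10 (SD over 5 libraries) and HIST1H1C at 1.83 ± 0.25, while HIST1H1D was at 0.12 ± 0.30, the lowest of the 28. Among H3 genes HIST1H3B was at 2.08 ± 0.23 and HIST1H3F at 0.51 ± 0.39. Among H4 genes, nearly all of which encode the same protein, HIST1H4C was at 1.59 ± 0.21 and HIST1H4E at 0.47 ± 0.24, with every library of HIST1H4C above every library of HIST1H4E. HIST1H2BD was at 2.20 ± 0.49 and highest in WT replicate 1. Over the other 4 libraries it was at 2.00 ± 0.24, and HIST2H2BE had the highest value there, 2.15 ± 0.26. Reads shared between near-identical members could enter either table in different proportions, and their part in these differences was not tested.

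**Figure D4:**
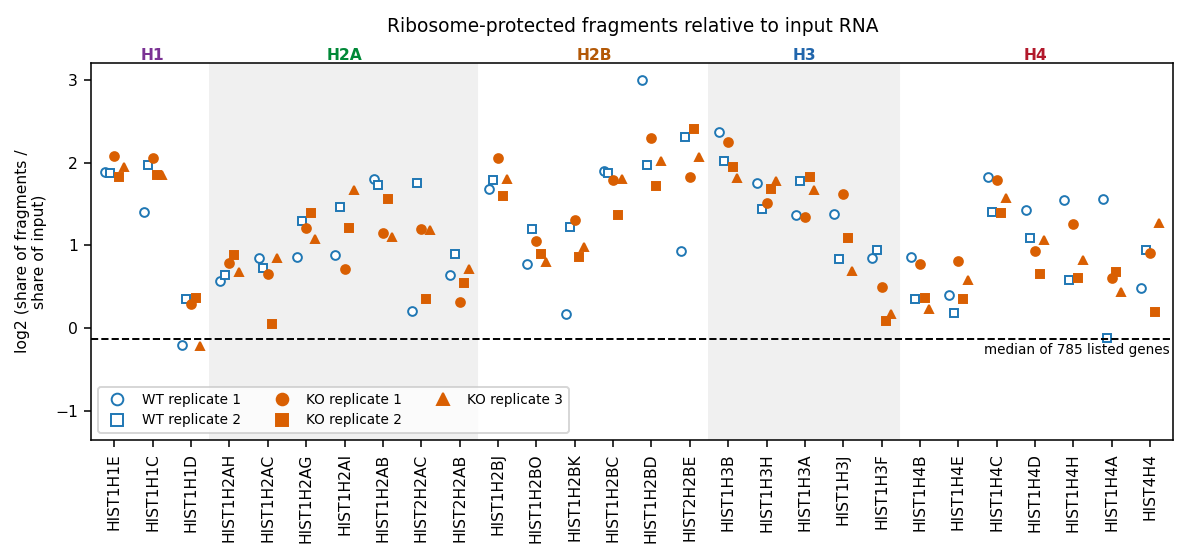
log2 ratio of each histone gene's share of ribosome-protected fragments to its share of input RNA (y axis), 1 point per library with symbols as in the plot of input levels; the dashed line is the median of all 785 listed genes (-0.14). HIST1H1D lies near the line, and HIST1H1E, HIST1H1C, HIST1H3B and HIST1H4C lie above 1 in all 5 libraries.

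The deposited efficiency table also classes the transcription start of each gene as m6Am or as an unmethylated A, C, G or T. Of the 28 histone genes 2 were classed m6Am (HIST1H1C and HIST1H2BK), 16 A, 1 C (HIST1H3H), 1 G (HIST1H3F) and 8 T. The m6Am share was 7.14% (exact interval 0.877 to 23.5%), against 56.2% (52.5 to 59.8%) of the 737 other genes of the table. T made up 28.6% of histone genes (13.2 to 48.7%) and 5.16% of the others (3.67 to 7.01%). All 8 T members lie on the minus strand. In the table each start has a window of 160 or 161 nt, and the middle base of a 161-nt window could be set against the RefSeq sequence. For genes of the A, C, G and T classes the letter equalled that base on the sense strand in 64 of 64 plus-strand genes, and its complement in 46 of 46 minus-strand genes. For genes classed m6Am with such a window, that base was A in only 8 of 46 plus-strand and 2 of 10 minus-strand genes. Read on the sense strand, with the letters of minus-strand 161-nt windows complemented, the histone genes held 2 m6Am, 24 A and 2 C letters. A or m6Am made up 26 of 28 (92.9%, exact interval 76.5 to 99.1%), against 84.5% (81.7 to 87.1%) of the others. These shares count class letters, not bases shown to be transcription starts. Of 8 histone genes with a sense A and sequence at a 161-nt window, 7 had it in an ATG, as described below. Among genes with either letter, m6Am made up 2 of 26 histone genes (7.69%, 0.946 to 25.1%), against 414 of 623 other genes (66.5%, 62.6 to 70.2%). The miCLIP RNA was polyadenylated per the labels, and how far m6Am could be detected on mRNAs without a poly(A) tail was not tested. Windows of 160 nt were matched at no single offset (at most 36.2% of 343 genes), so the 12 members with such a window, both m6Am genes among them, were kept as deposited.

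The position of the classed base is shown for 10 of the 11 members with a 161-nt window and a RefSeq base at its middle, since it decides what the letter reads. The other, HIST2H2AB (class T, sense base A), has its classed base 49 nt past the RefSeq start, where the sequence table ends. Each line gives 30 bases of GRCh38.p14 (RefSeq) on the sense strand, 5′ to 3′, with the classed base in capitals.
HIST1H2AC, chr6:26124126-26124155, plus strand, class A: tccccaggaactacctataAaagcggccat
HIST1H3A, chr6:26020471-26020500, plus strand, class A: gctgtgctgtttttccgtcAtggctcgcac
HIST1H4E, chr6:26204626-26204655, plus strand, class A: tttcgttggtgtgttggtcAtgtctggtcg
HIST1H3H, chr6:27810045-27810074, plus strand, class C: tctcctgaagtgaatctagCtctgaaggca
HIST1H3F, chr6:26250597-26250626, minus strand, class G: cattgcttgaaacccattcCtatggcacgc
HIST1H2BC, chr6:26123894-26123923, minus strand, class T: acatttctggtgttttaagAtgcctgagcc
HIST1H3B, chr6:26032050-26032079, minus strand, class T: gcttttctgtggttttgccAtggctcgtac
HIST1H4B, chr6:26027242-26027271, minus strand, class T: tgttgtcagctggttagacAtgtctggtcg
HIST1H4D, chr6:26189066-26189095, minus strand, class T: taacagctgtggtttcaagAtgtctggccg
HIST1H4H, chr6:26285489-26285518, minus strand, class T: ttttagaagttgcttagtcAtgtctggccg

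In 7 of these 10 the classed base was the A of an ATG, the letters of a translation start codon, and lay 22 to 39 nt downstream of the start that RefSeq gives. The 7 are HIST1H3A, HIST1H3B, HIST1H2BC, HIST1H4B, HIST1H4D, HIST1H4E and HIST1H4H. Among the other genes of the table with such a window and sequence, 6 of 155 had an ATG there (3.87%, exact interval 1.43 to 8.23%). Of those with an A on the sense strand, 3 of 33 other genes did (9.09%, 1.92 to 24.3%), against 7 of 8 histone genes (87.5%, 47.3 to 99.7%). The classed base of HIST1H3F was a C that lay 2 bases before an ATG, that of HIST1H3H was a C 13 nt past the RefSeq start, and that of HIST1H2AC lay 27 nt upstream of it within the letters TATAAA. For these members the class letter therefore does not read the base at the RefSeq start, which was G in HIST1H3A, HIST1H2BC, HIST1H4B, HIST1H4D, HIST1H2AC and HIST1H3H and A in HIST1H3B, HIST1H3F, HIST1H4E and HIST1H4H. Which of the 2 positions the transcripts begin at was not measured here.

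The m6Am regions, a separate deposited list of 2360 intervals with a score, covered few histone starts. The list is named with the WT miCLIP library, whose RNA was polyadenylated per the labels. Detection on mRNAs without a poly(A) tail was not tested. Of the 68 histone genes with a start in the reference, 3 had a region within 50 nt on the same strand (4.41%, exact interval 0.919 to 12.4%), against 1552 of 15779 other protein-coding genes (9.84%, 9.38 to 10.3%). The intervals overlap, so a lower share was not shown. HIST1H2BK (H2BC12) had the highest score of the 3, 4.39, rank 91 of the list (GRCh38 chromosome 6, 27146751 to 27146900, minus strand). HIST1H1C (H1-2) followed with 3.98, rank 217 (chromosome 6, 26056401 to 26056500, minus strand). Both are the genes that the efficiency table classes as m6Am. The third was H4C15 (chromosome 1, 149861101 to 149861200, minus strand, score 2.40, rank 2017), whose span of 16753 nt runs far beyond a usual H4 gene. The divergent partner of HIST1H2BK, HIST1H2AH, starts outside that region and was classed A.

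Both m6Am genes are shown with their upstream sequence, since their RefSeq starts differ in the first base. The lines give 150 bases before the RefSeq start and 20 from it on the sense strand, with the first base and the motifs described next in capitals.
HIST1H1C, chr6:26056451-26056620, minus strand, class m6Am: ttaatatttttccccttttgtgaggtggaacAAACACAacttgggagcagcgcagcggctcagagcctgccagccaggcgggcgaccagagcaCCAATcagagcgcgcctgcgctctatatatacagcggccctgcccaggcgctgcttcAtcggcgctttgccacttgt
HIST1H2BK, chr6:27146839-27147008, minus strand, class m6Am: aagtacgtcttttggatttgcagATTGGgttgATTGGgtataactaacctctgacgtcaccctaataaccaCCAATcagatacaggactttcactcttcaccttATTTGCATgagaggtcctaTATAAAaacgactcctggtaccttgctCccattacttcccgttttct

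HIST1H1C begins with A at the RefSeq start, while HIST1H2BK begins with C, and the deposited window of HIST1H2BK is centred 10 nt downstream of it. Within the stretch shown, HIST1H1C has a CCAAT box (CCAAT, first base at -57) and the H1 box (AAACACA, at -119). HIST1H2BK has a TATA box (TATAAA, at -27), the octamer (ATTTGCAT, at -46), CCAAT at -79 and its reverse complement ATTGG at -118 and -127. These motifs were searched on both strands in the 300 bases around each RefSeq start, 250 before it and 50 from it, for the 64 histone genes in the table. CCAAT was found in 54 of 64 (84.4%), against 36.2% of 15779 other genes. It was in every H1, H2A, H2B and H3 window and in 3 of 13 H4 windows. TATAAA was found in 42 of 64 (65.6%), against 9.40%. The octamer was found in 11 of 16 H2A and 14 of 18 H2B genes, in 1 of 11 H3 genes and in no H1 or H4 window, against 1.54% of the others. AAACACA was found in 6 of 6 H1 genes and in 1 of 16 H2A and 2 of 11 H3 genes, against 4.20%. Windows of divergent H2A and H2B neighbours can share bases, so the same motif can be counted for both genes. A match is a description of the letters only.

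Internal m6A was read from the miCLIP lists, which hold single DRACH positions with the reads that carry a substitution. The lists name 43663 sites in WT and 40768 and 47644 in KO replicates 1 and 2. Of the 69 histone genes 9 held a site in WT (13.0%, exact interval 6.14 to 23.3%), as did 7 in KO replicate 1 (10.1%, bounds 4.18 and 19.8%) and 10 in KO replicate 2 (14.5%, bounds 7.17 and 25.0%), against 47.8%, 46.7% and 48.6% of the other protein-coding genes. Most histone genes are short: among genes with a span under 1000 nt the shares were 4, 4 and 5 of 61 histone genes (6.56%, 6.56% and 8.20%), against 5.26%, 5.05% and 5.26% of 475 others. These others were not matched for RNA level. Within the efficiency table the shares were 6, 5 and 7 of 28 histone genes (21.4%, 17.9% and 25.0%). Of the 735 others there, not matched for length, 90.2%, 87.6% and 91.3% held a site. The histone sites were shallow, with a median of 14, 14 and 10.5 reads, against 30, 37 and 42 over each whole list, and no site had more than 4, 5 and 7 substituted reads. With 1 WT library no test of genotype was made, and the miCLIP RNA was polyadenylated per the labels.

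By type, the WT list held sites in 1 of 6 H1, 1 of 17 H2A, 3 of 18 H2B, 2 of 13 H3 and 2 of 15 H4 genes. Over the 3 lists 12 histone genes held a site, 6 of them in every list, at 21 positions. Only 2 positions were in all 3 lists, both with the motif GGACA. In H2AC25 (chromosome 1, 228457390, 483 nt past the start) 3 of 65 reads carried the substitution in WT (4.62%, exact interval 0.962 to 12.9%). The same position had 5 of 59 reads in KO replicate 1 (8.47%, bounds 2.81 and 18.7%) and 7 of 57 in KO replicate 2 (12.3%, bounds 5.08 and 23.7%). In HIST1H3H (H3C10; chromosome 6, 27810445, 394 nt past the start) it was 3 of 14 reads in WT (21.4%, 4.66 to 50.8%), 3 of 14 in KO replicate 1 and 2 of 14 in KO replicate 2 (14.3%, 1.78 to 42.8%). All of these intervals overlap, and they cover counting error only.

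The other 4 genes with a site in every list changed position between lists. HIST1H4E (H4C5) had 2 of 21 reads at 249 nt past its start in WT, and 2 of 16 and 2 of 21 reads at 65 nt in KO replicates 1 and 2. H3C6 had 3 of 17 and 3 of 22 reads at the same AGACA in WT and KO replicate 1, and 2 of 7 reads at another AGACA in KO replicate 2. HIST2H2BE (H2BC21) had 2 of 5 reads in WT at 890 nt, 2 of 9 in KO replicate 1 and 2 of 7 in KO replicate 2 at 867 nt, and 2 of 5 reads at 834 nt in KO replicate 2. HIST1H2BD (H2BC5) had 2 of 7 reads in WT and KO replicate 1 at 12897 nt past its start and 2 of 9 in KO replicate 2 at 13076 nt, within the span of 13229 nt that RefSeq gives this gene and far beyond the length of a usual histone mRNA. HIST1H2BK, classed m6Am, had a GAACT 251 nt past its start with 4 of 67 reads in WT (5.97%, 1.65 to 14.6%) and 4 of 61 in KO replicate 2 (6.56%, 1.82 to 15.9%), and no entry there in KO replicate 1. HIST1H1C had a site in KO replicate 2 alone (3 of 12 reads).

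A linker histone gene outside the family gave deeper sites in the same libraries. H1-10, a replication-independent H1 gene, held 4, 5 and 5 sites in WT and KO replicates 1 and 2, at up to 333, 304 and 420 reads. It was chosen for comparison after its values were seen.

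Other genes of histone supply were read from lists of the input fit, as far as the tables name them. Of 5 named genes of histone mRNA processing and decay, 4 were positive (median 0.07) and edgeR called 0. SLBP, the stem-loop binding protein, was at -0.09 (SE 0.13) and LSM7, part of a decay complex, at 0.27 (SE 0.13). Of 13 replication and chaperone genes 5 were positive (median -0.05), and edgeR called 0. HAT1, a histone acetyltransferase acting on new H4, was at 0.57 (SE 0.24, edgeR adjusted p = 0.515), PCNA, the replicative clamp, at 0.10 (SE 0.09) and RBBP4, a histone chaperone, at -0.17 (SE 0.12). Of 5 named histone variant genes outside the family 3 were positive (median 0.02) and edgeR called 0. H2AFX was at 0.25 (SE 0.12), H2AFZ at 0.16 (SE 0.10) and H3F3B at -0.18 (SE 0.10). At an unadjusted p under 0.05 edgeR called HAT1 alone among the genes of these 3 lists. Of the markers listed for the cell line only VIM is named in the tables (0.01, SE 0.09), so the cell type could not be checked further.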

How the data were processed

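Gene symbols were matched to the reference gene table (GRCh38.p14, RefSeq) by current name and older synonym, and 19 pseudogenes and 7 coding genes without both names were left out. The members and gene lists were chosen with earlier results of these data known. Every measured member is given in every library; beside these, the member of each type with the smallest input p, each member with a DRACH site in all 3 lists or an m6Am region at its start, and any other as stated.

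Per the file headers, the authors deposited read counts per Ensembl gene for input and fragments. The efficiency table that the authors deposited holds log2 fold changes, their standard errors, p-values, a test score and a mean signal. The SLAM-seq table they deposited holds 1 KO over WT ratio per gene. The deposited miCLIP lists hold counts of substituted reads per position, and the deposited m6Am list a score per region, used only for ranks. The submitters' processing notes name BWA 0.7.17, STAR, bedtools and deepTools without roles; no counter or strand setting is given in the sources used here. All columns were matched to samples by title, with 0 left over.

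Counts were tested with edgeR 4.0.16 (TMM, robust quasi-likelihood F test, filterByExpr for the input, Benjamini-Hochberg over all genes, threshold 0.05, two-sided), after a test on simulated data. DESeq2 1.42.0 was the alternative. Efficiency was the interaction of genotype and library kind. The SE of a log2 fold change is its absolute value divided by the square root of F from edgeR's test. Replicate numbers shared by WT and KO were checked: residuals of same-numbered libraries correlated at 0.16 and -0.0033 in the input and 0.19 and 0.21 in the fragments. With 2 WT libraries, and differently numbered libraries not compared, these values cannot exclude pairing. The libraries were not treated as pairs in the main fits, and the replicate number as a block is given as an alternative. Shares carry exact Clopper-Pearson intervals at 95%, for counting error only. Lists and sequences were read with Python 3.11.15, pandas 2.3.3 and scipy 1.17.1.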

Additional observations from a re-analysis of the deposited data

How the results depend on the processing

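No histone gene was called in the input, fragments or efficiency under any alternative except without WT replicate 2 in the input, where 11 of 28 were called (range over the left-out libraries 0 to 11). The input count over all genes (5) was 15 with the DESeq2 test, 152 without the filter on low counts and 3 with the replicate number as a block, and 2 to 1912 when 1 library was left out. The fragment count (0) was 6 with the replicate block and 0 to 3 when 1 library was left out. The efficiency count (0) was 2 with the DESeq2 test, 2 in the authors' deposited table, 0 with either replicate block and 0 to 14 when 1 library was left out. The histone median ranged from 0.00065 to 0.26 in the input, from -0.067 to 0.37 in the fragments and from -0.040 to 0.12 in efficiency when 1 library was left out, and was 0.0050, 0.072 and 0.052 with the replicate block, under which 9 of 28 input values had the other sign. The median log2 ratio of fragments to input over histone genes (1.08) was 1.11 without WT replicate 1, added after seeing the data. The causes of these shifts were not tested. Members with a DRACH site fell from 9, 7 and 10 (WT, KO replicates 1 and 2) to 0, 1 and 1 with at least 5 substituted reads and to 4, 4 and 5 with spans under 1000 nt, a limit added after seeing the data. They did not change when the strand of the gene was required. Members with an m6Am region numbered 3 within 200 nt and 2 among the regions scored at or above the median. Reading the class letters on the sense strand, also added after seeing the data, moved the number of histone genes with an A or m6Am letter from 18 to 26. Most histone DRACH entries had fewer than 30 reads (24 of 30), so the intervals of their substituted shares are wide.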

Other observations

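The deposited start classes depend on the strand of the gene. Of 38 other genes classed T, 31 lie on the minus strand, as do 8 of 8 histone genes classed T. Over both deposited tables that carry start classes, the letter equalled the sense base in 374 of 374 plus-strand genes and its complement in 57 of 57 minus-strand genes with a 161-nt window of the A, C, G and T classes. Any grouping of the histone genes by the T or G class as deposited therefore holds genes whose sense base is A or C.

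The histone genes with a classed base at an ATG span H2B, H3 and H4 (1 H2B, 2 H3 and 4 H4 genes). Their input log2 fold changes ran from 0.000053 for HIST1H2BC to 0.19 for HIST1H3B. None of them had an m6Am region within 50 nt of its RefSeq start, but all were classed A or T and not m6Am. Such a region was rare in any case, in 3 of 68 histone genes and 9.84% of the other protein-coding genes. The absence is therefore no separate result.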
